A study of Gallus gallus with 16 samples.

Results

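This comparison sets chick neural crest cells that received Cas9 with guides against both sox10 and tfap2b beside cells that received Cas9 without any guide. The members were taken by their library labels: 3 double-targeted libraries and 2 Cas9 control libraries, 5 of the 16 libraries of the series. They are described across the 14081 expressed genes that passed the expression filter, out of 24881 annotated features.

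All embryos were wild-type Gallus gallus, collected at stage HH18, and vagal regions were dissected from electroporated embryos. Electroporation reaches only some of the cells, so that targeting is mosaic within a tissue. The double group carried the plasmids tfap2b_g1, tfap2b_g2 and sox10_g1 with pCAG Cas9-2A-Citrine. The control group carried pCAG Cas9-2A-Citrine and no guide plasmid. The Cas9 plasmid, driven by the ubiquitous pCAG promoter, was thus shared by every library, and cells were collected by fluorescence sorting for Citrine. Used for direct contrasts, the sox10 group had 2 sox10 guides and the tfap2b group 2 tfap2b guides, with 3 libraries each. The double group therefore lacked the second sox10 guide of the sox10 group. Used as other references, the sox3 group had 2 guide plasmids and 2 libraries, and the msx1 group 1 guide plasmid and 3 libraries. The labels name sorted Citrine-positive cells, while the extraction protocol names dissected dorsal neural tubes. They do not say whether replicates came from separate embryos, so the p-values measure the spread between these libraries, which may be technical.

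Neural crest cells leave the dorsal neural tube, migrate, and form neurons, glia, pigment cells and mesenchyme. Those of the vagal level populate most of the enteric nervous system and contribute to the outflow tract of the heart. SOX10 is a transcription factor with an HMG box that holds crest cells in a multipotent state and is later needed for glia and enteric precursors, and TFAP2B is a crest transcription factor of the AP-2 family. The files identify genes by Ensembl number and position on galGal5 only. The targeted genes and the markers of crest, glia, neurons or blood were therefore not identified here, so neither the knockout nor the sorted cell type was checked on the RNA. Genes are described by level, position and structure instead.

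Total counts were 10950236 to 16510003 in the 3 double libraries and 19355001 and 22142722 in the 2 controls, so depth moved with the group. The control pair resembled each other more closely than any pair of doubles, with a Spearman rho across genes of 0.992 against 0.945 to 0.959. The standard deviation (SD) of log2(CPM + 1) between libraries was taken over the 8187 genes that averaged 10 CPM (counts scaled to library size) or more. Its median was 0.100 in the control (n = 2) and 0.262 in the double group (n = 3), numbers of libraries that are not strictly comparable. Of the 8187 genes, 153 spanned more than 4-fold among the 3 double libraries. Between pairs of doubles 46, 80 and 86 genes did, and 0 did between the 2 controls. Those 153 genes were highest in double replicate 1 in 64 cases, in replicate 2 in 62 and in replicate 3 in 27.

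Against the control, a large part of the expressed genome changed, and the lower genes changed by more than the higher ones. At an adjusted p under 0.05 (edgeR quasi-likelihood test, all 16 libraries in 1 fit), 5243 of 14081 genes (37.2%) were called. They comprised 2402 genes (17.1%) higher and 2841 genes (20.2%) lower in the double group. The median log2 fold change was 1.21 for the higher genes, with quartiles of 0.96 and 1.72. It was -2.38 for the lower genes, with quartiles of -3.50 and -1.63, and -0.09 for all tested genes.

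At each threshold on the fold, lower genes outnumbered higher ones. Past 2-fold lay 1707 of the higher and 2679 of the lower genes, past 4-fold 493 and 1782, and past 8-fold 308 and 979. Past 32-fold lay 106 and 258. The fitted folds at the far end include genes at 0 counts in 1 group, whose size depends on the prior count. With each library taken on its own against the control mean, 1203 genes were more than 2-fold higher in all 3 doubles and 2398 more than 2-fold lower among the called genes.

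The libraries of the groups separated for nearly every called gene. All 3 doubles lay above both controls for 2386 of the 2402 higher genes, and below them for 2841 of the 2841 lower genes. Over all tested genes, called or not, the same separation held for 4319 genes upward (30.7%) and 5490 genes downward (39.0%). With 3 libraries against 2, an exact permutation test of a single gene could not reach a p below 0.1.

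The number of calls depended on the control pair and on the tool. Leaving out control replicate 1 gave 3214 calls and leaving out control replicate 2 gave 3048, in fits that assume that the lone control library varies like the other groups. Summing the closest library pairs, the controls among them, gave 2007 calls, and limma-voom with quality weights gave 8504.

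**Figure D1:**
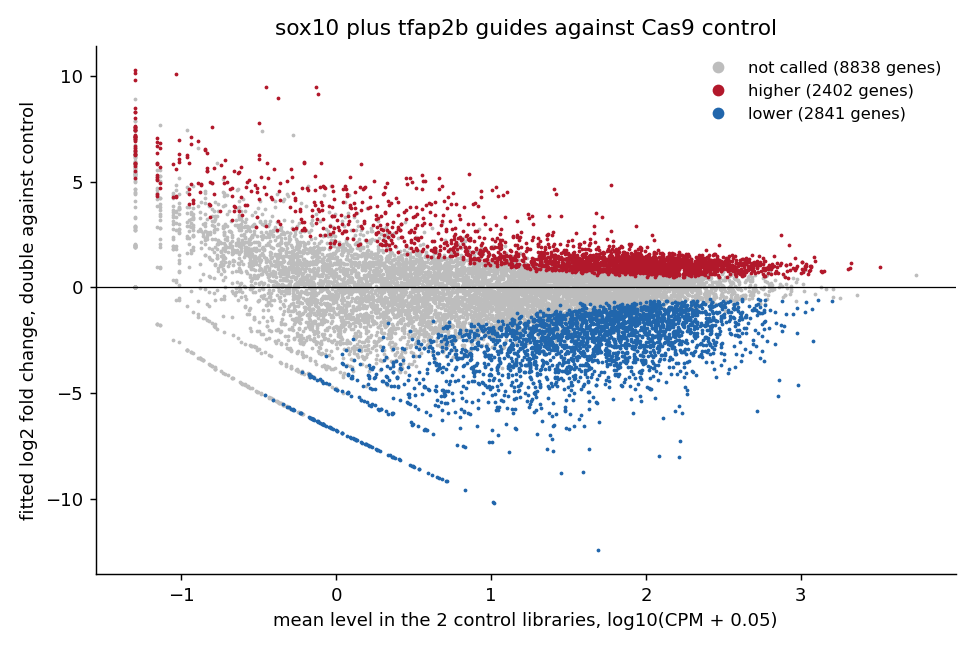
Fitted log2 fold change of the double group against the control (vertical axis) by mean control level on a log10 scale with 0.05 CPM added (horizontal axis), 1 point per tested gene. The 2402 higher genes gather close above 0, while the 2841 lower genes spread further from it; the slanted lines at the lower left are genes with few or 0 counts in the double libraries.

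The lower genes gave up most of their share of the RNA. In the double libraries, the 2841 lower genes held 6.80%, 7.67% and 6.24% of all counts, against 27.4% and 27.6% in the controls. The 2402 higher genes held 59.9%, 58.0% and 61.8% of the counts in the doubles and 33.8% and 32.9% in the controls. These shares describe the genes by the values that called them. The 100 most abundant genes of each library, which were not chosen by the comparison, held 16.9% ± 0.325 of the counts in the double group (SD, n = 3) and 12.3% ± 0.468 in the control (SD, n = 2), and all 3 doubles lay above both controls. In bulk RNA, fewer cells of a type and less RNA per cell cannot be told apart.

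Fewer genes were detected in the double libraries at equal depth. Thinned to 10950236 counts each, the doubles had a count for 13881, 14208 and 13682 genes, and the controls for 15031 and 15050. The groups did not overlap, and the means differed by -1117 genes. At a depth of 5475118 counts, the difference was -1042 genes.

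Complete loss was rare among genes with a clear level. With a control mean of at least 10 CPM, 3 genes had 0 counts in all 3 double libraries, and 1 of them exceeded 20 CPM. In the other direction, 1 gene had 0 counts in both controls and at least 10 CPM in the doubles, and 0 genes had at least 20 CPM. The highest control mean among the genes at 0 in the doubles was 48.8 CPM.

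The most abundant genes leaned higher and those of middling level lower. Of the 1052 genes at 200 CPM or more in the control, 413 were higher (39.3%) and 288 lower (27.4%), with a median log2 fold change of 0.18. Between 50 and 200 CPM, 954 of 3350 genes were higher (28.5%) and 1029 lower (30.7%). With the sox3 or msx1 group as reference, this bin held more higher than lower genes (921 against 791 and 1087 against 842). Between 10 and 50 CPM lower genes clearly outnumbered higher ones, with 516 of 3876 higher (13.3%) and 1035 lower (26.7%), and a median of -0.47. At 1 to 10 CPM, 306 of 3620 were higher and 431 lower. Below 1 CPM, 213 of 2183 were higher and 58 lower.

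The contrast between levels was wider when genes were binned by the mean of both groups, a choice made after the data were seen. That mean contains the double levels, so rising genes can move into higher bins and falling genes into lower ones. The part of this in the wider contrast was not tested. At 200 CPM or more, 705 of 1203 genes were then higher (58.6%) and 145 lower (12.1%), with a median of 0.77. At 10 to 50 CPM, 450 of 3905 were higher (11.5%) and 1174 lower (30.1%). Below 1 CPM the direction turned, with 53 of 1961 higher and 132 lower. The bin of the lowest genes therefore supports no direction of its own.

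Of the genes with at least 50 CPM in 1 of the groups and no overlap of libraries, the largest fall was that of ENSGALG00000016524 (chromosome 3, 104970733 to 104980694, 34 merged exon blocks). It measured 0.963, 0.325 and 0.578 CPM in the double libraries and 148.3 and 178.1 CPM in the controls. All 3 doubles were close to 0 while both controls were well expressed, a log2 fold change of -8.04 ± 0.58 (SE; edgeR adjusted p = 3.7e-07). Its levels were 0.385 to 1.20 CPM in the sox10 libraries, 0.944 to 1.39 CPM in the tfap2b libraries and 70.2 to 235.3 CPM in the libraries with msx1 guides. Leaving out any 1 of the 5 libraries kept the call, with adjusted p of 4.22e-06 to 1.16e-05.

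The gene next in size of fall was ENSGALG00000034560 (chromosome 15, 10142445 to 10151367, 10 merged exon blocks). It measured 0.0963, 0.569 and 0.707 CPM in the doubles and 129.4 and 113.1 CPM in the controls. The log2 fold change was -7.96 ± 0.78 (SE; edgeR adjusted p = 4.74e-06), and the groups lay far apart. The gene measured 0 to 0.825 CPM in the sox10 libraries and 0.755 to 3.15 CPM in the tfap2b libraries. It lay between the double and control levels, at 30.4 and 30.6 CPM in the sox3 group and 13.2 to 26.4 CPM in the msx1 group.

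The 2 genes with the largest rises were far less even between replicates than the 2 with the largest falls. The called genes as a whole went the other way. Among those averaging 10 CPM or more, the median SD of log2(CPM + 1) among doubles was 0.164 for higher and 0.364 for lower genes. Of those, 20 of 2108 higher and 56 of 2097 lower genes spanned more than 4-fold among the doubles. The 2 sets were not matched for level. ENSGALG00000013575 (chromosome 2, 90026993 to 90030445, 3 merged exon blocks) measured 132.6, 32.3 and 3.60 CPM in the doubles and 0.0460 and 0.0386 CPM in the controls. All 3 doubles were above the controls, but they differed widely among themselves. The sox10 libraries differed widely too, at 0.240 to 422.3 CPM, and the tfap2b libraries measured 9.82 to 49.5 CPM. The controls held 2 counts in all, so that the ratio of group sums was 1141 with an exact binomial 95% interval of 315 to 9426 that covers counting error only (edgeR adjusted p = 0.023). The call was lost without control replicate 1 (adjusted p = 0.155) or control replicate 2 (adjusted p = 0.166), and against the sox3 or msx1 group as reference (adjusted p = 0.113 and 0.151).

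ENSGALG00000017347 (chromosome 1, 194562710 to 194576539, 6 merged exon blocks, overlapping another annotated gene) measured 652.7, 21.4 and 13.7 CPM in the doubles and 0.184 and 0.424 CPM in the controls. Double replicate 1 carried most of the group's level. The log2 fold change was 9.48 ± 3.00 (SE; edgeR adjusted p = 0.0293). The call was lost without double replicate 1, where the log2 fold change was 5.77 (adjusted p = 0.0592). It was also lost without control replicate 1 (9.03, adjusted p = 0.172) and without control replicate 2 (10.2, adjusted p = 0.161), with log2 fold changes about as large as before. The sox3 libraries held 2495 and 1557 CPM of this gene, above every double library, and the msx1 libraries held 0.882 to 130.2 CPM. It measured 2413 to 4422 CPM in the sox10 libraries and 437.5 to 1341 CPM in the tfap2b libraries. The overlap is one of gene spans, and shared exons were not checked. Where exons overlap, reads of the 2 genes may not be told apart.

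At the other end, some well expressed genes kept their level. ENSGALG00000000220 (chromosome Z, 46027195 to 46082742) measured 101.8, 141.6 and 136.1 CPM in the doubles and 112.7 and 140.4 CPM in the controls. ENSGALG00000008677 (chromosome 2, 19823100 to 19830837) measured 1558, 1409 and 1074 CPM in the doubles and 1441 and 1253 CPM in the controls. The groups overlapped for both genes, whose log2 fold changes of 0.00 were chosen for being nearest 0 and had standard errors of 0.23 and 0.24.

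**Figure D2:**
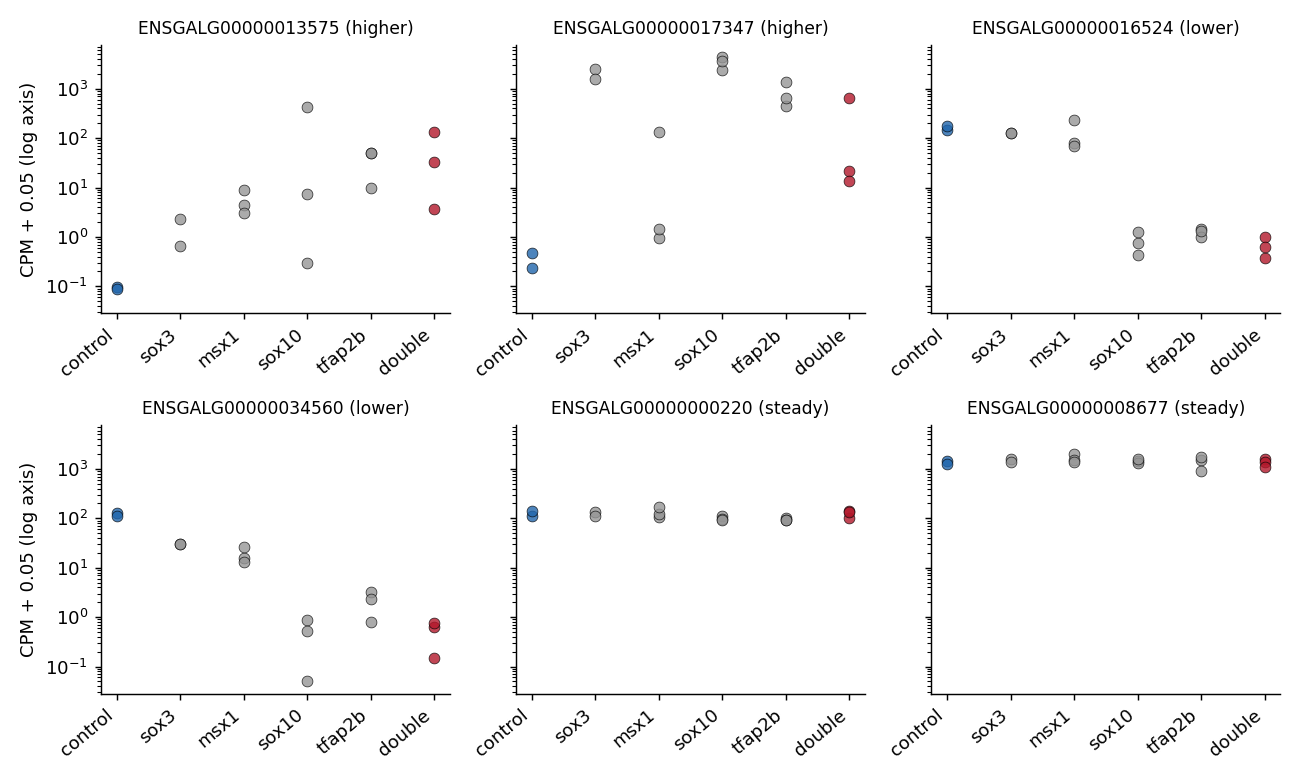
CPM plus 0.05 (vertical log axis) of the 6 named genes in every library of the 6 groups (horizontal axis), 1 point per library, control in blue and double in red. The falls of ENSGALG00000016524 and ENSGALG00000034560 are tight, with every double library under 1 CPM, whereas ENSGALG00000013575 ranges from 3.60 to 132.6 CPM among the doubles.

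Taken over all levels, genes of the small chromosomes leaned lower, and those of the large chromosomes higher. Microchromosomes are the many small, gene-dense chromosomes of birds, taken here as chromosomes 11 to 33. Of 4776 tested genes on them, 649 (13.6%) were higher and 1263 (26.4%) lower. On the macrochromosomes 1 to 5, 1251 of 6300 genes were higher and 1010 lower. Chromosomes 6 to 10 lay between, with 349 of 2285 genes (15.3%) higher and 482 (21.1%) lower. Within a class the direction differed between level bins taken by the mean of both groups. That mean contains the double levels, so rising genes can move into higher bins. Bins by control level were not made within classes, and the part of the binning in this difference was not tested. At 200 CPM or more, 219 microchromosome genes were higher and 78 lower. At 10 to 50 CPM, 253 macrochromosome genes were higher and 434 lower. The microchromosome median was the lower one in both bins (0.63 against 0.87, and -0.82 against -0.25).

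The difference between the classes was seen in all 3 double libraries, although double replicate 3 did not lean higher on the large chromosomes. The median log2 ratio of microchromosome genes to the control mean, with 0.5 CPM added, was -0.42, -0.40 and -0.52 in double replicates 1, 2 and 3. For macrochromosome genes it was 0.05, 0.06 and -0.04. Every double library was lower on the small than on the large chromosomes.

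Chromosome by chromosome, the 19 microchromosomes with at least 20 tested genes each had more lower than higher genes. The lower share ran from 16.7% on chromosome 16 to 33.04% on chromosome 22, and the median fitted log2 fold change from -0.16 on chromosome 16 to -0.99 on chromosome 24. On chromosome 24, 10 of 164 genes were higher and 46 lower. Of the 5 macrochromosomes, chromosome 5 alone had more lower than higher genes (172 against 169), and chromosome 1 had the highest median (0.23).

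**Figure D3:**
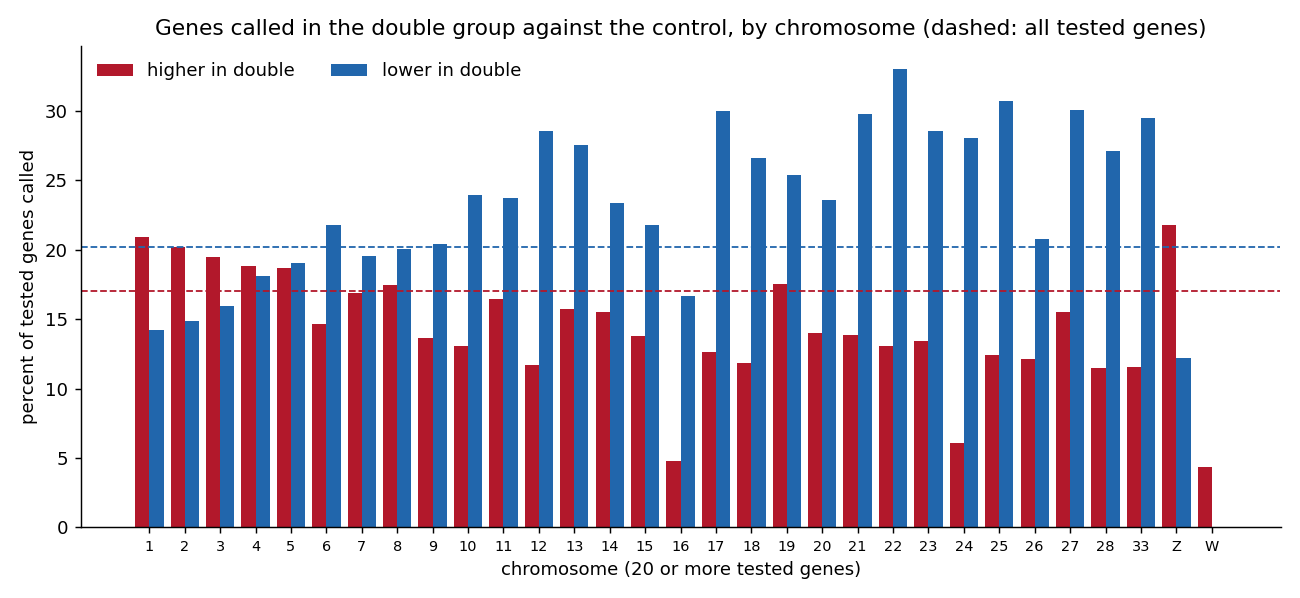
Percent of tested genes called higher (red bars) and lower (blue bars) in the double group against the control on each chromosome with at least 20 tested genes, with dashed lines at 17.1% and 20.2% for all tested genes. Blue bars exceed red bars on every chromosome from 5 to 33 shown. Red exceeds blue on chromosomes 1 to 4, Z and W, with 1 gene called on W.

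The shares of raw counts shifted from the small toward the large chromosomes. Macrochromosome genes held 46.0%, 45.6% and 46.1% of all counts in the doubles and 41.3% and 41.9% in the controls. Microchromosome genes held 33.8%, 33.8% and 33.5% in the doubles and 38.1% and 37.2% in the controls. The groups did not overlap for either class. These are shares within each library, without the TMM scaling between libraries that the calls and CPM use. The TMM factors were 0.943 to 0.979 for the doubles and 1.12 and 1.17 for the controls. The shares therefore do not give the direction of summed CPM, which was not compared for these classes.

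The sex chromosomes behaved apart from each other. On Z, 150 of 689 genes (21.8%) were higher and 84 (12.2%) lower, with a median log2 fold change of 0.18, or 0.00 without the expression filter. Z genes held 4.995%, 5.19% and 5.24% of the counts in the doubles and 4.07% and 4.14% in the controls. On W, which is carried by female birds only, 1 of 23 genes was called, higher in the doubles. W genes held 0.0253% ± 0.00458 of the counts in the doubles (SD, n = 3) and 0.0373% ± 0.00122 in the controls (SD, n = 2). These are raw shares. With TMM scaling, W genes summed to 318.7, 251.0 and 224.4 CPM in the doubles and 324.3 and 326.0 CPM in the controls. Double replicate 1 thus lay near the controls. The sex of the embryos is not given in the labels, and its part in the Z and W values was not tested.

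Taken over all levels, longer transcripts leaned lower. Exonic length, the summed length of merged exons, was divided into 5 bins of about equal gene number. In the bin of the shortest genes (62 to 1096 bp), 485 of 2819 genes (17.2%) were higher and 408 (14.5%) lower, and the median log2 fold change was 0.20, or 0.00 without the expression filter. The library medians, with 0.5 CPM added, were nearer 0, at 0.04, 0.05 and -0.007 in double replicates 1, 2 and 3. In the bin of the longest (3340 to 26070 bp), 273 of 2815 (9.70%) were higher and 800 (28.4%) lower, with a median of -0.48. The 3 bins between had medians of 0.03, 0.10 and -0.21. Level differed with length, with a median control level of 3.34 CPM in the shortest and 38.05 CPM in the longest bin. Level bins within a length bin were again by the mean of both groups, which contains the double levels, and the part of this was not tested. In them, the longest genes at 200 CPM or more showed no lean (63 higher, 64 lower). The shortest genes at 10 to 50 CPM leaned lower (90 higher, 161 lower). The longest genes had the lower median in both level bins (0.00 against 1.08, and -0.65 against -0.05).

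The lean by length and the lean by chromosome class were both seen within the bins of the other. Within the shortest bin, the fitted median was 0.41 on the macrochromosomes and 0.00 on the microchromosomes. The medians of double replicates 1, 2 and 3 there, with 0.5 CPM added, were 0.22, 0.19 and 0.07 on the macrochromosomes. On the microchromosomes they were -0.03, -0.07 and -0.12. Within the longest bin the fitted median was -0.24 and -0.90. In each of the 5 bins the microchromosome median was the lower one. Among the 881 longest microchromosome genes, 62 were higher (7.04%) and 337 lower (38.3%).

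Exon number showed a lean at both ends. Of 567 genes with 1 exon block, 39 were higher (6.88%) and 101 lower (17.8%), with a median log2 fold change of -0.50, or 0.00 without the expression filter. Genes with 4 to 6 blocks had a median of 0.21, and 657 of 2808 were higher (23.4%) against 486 lower (17.3%). Their library medians, with 0.5 CPM added, were 0.10, 0.12 and -0.004 in double replicates 1, 2 and 3. Of 1722 genes with at least 21 blocks, 135 were higher (7.84%) and 498 lower (28.9%), with a median of -0.56. Genes with 1 block had a median control level of 1.60 CPM, against 18.1 CPM for all tested genes, and the part of this lower level in their lean was not tested.

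**Figure D4:**
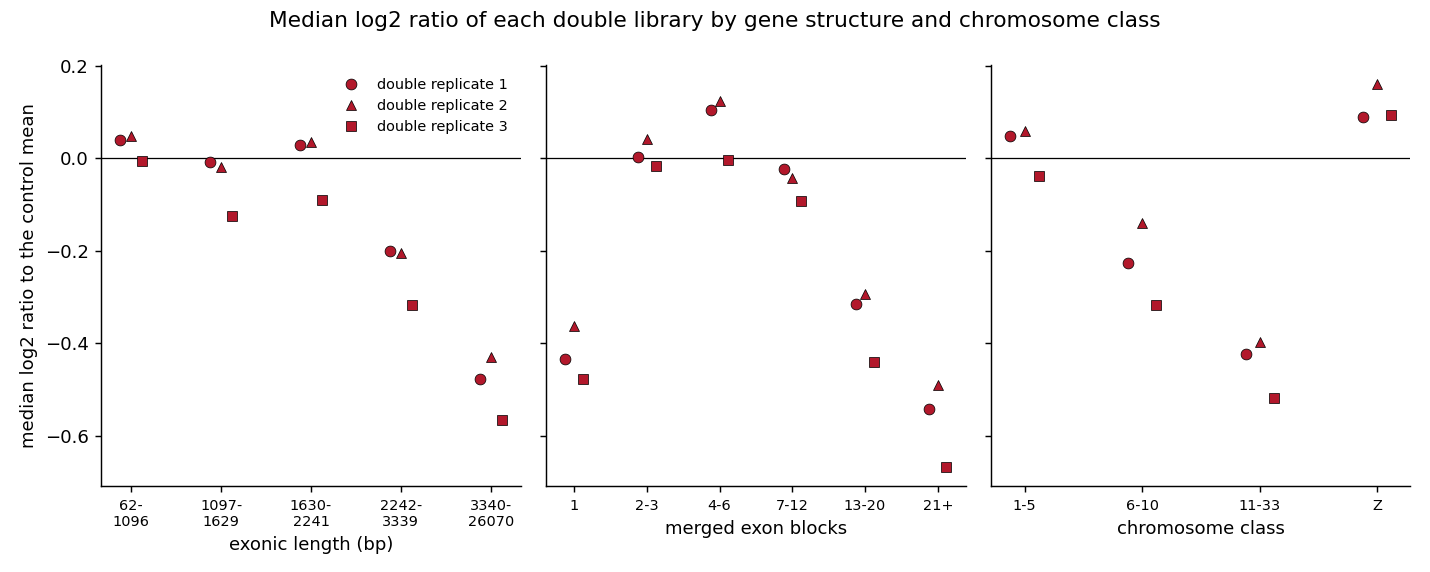
Median log2 ratio of each double library to the control mean, with 0.5 CPM added (vertical axis), by exonic length, number of merged exon blocks and chromosome class (horizontal axes); symbols mark double replicates 1 to 3. All 3 libraries fall from the shortest to the longest genes, peak at 4 to 6 exon blocks, and are lowest for chromosomes 11 to 33.

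Changed genes tended to lie next to genes changed in the same direction. Over 14050 neighbouring pairs of tested genes, the gene after a lower one was lower in 27.7% of cases, against 20.2% of all genes. The gene after a higher one was higher in 21.1% of cases, against 17.1% of all. After a lower gene the next was higher in 14.2% of cases. Unbroken runs of at least 5 genes called in 1 direction numbered 25 for lower and 5 for higher genes. Neighbours often share chromosome class and sequence context, and no test of clustering was made.

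The longest unbroken run was of 11 lower genes on chromosome 3, from 104858039 to 104938738. Their summed level was 186.5, 198.9 and 139.1 CPM in the doubles and 1088 and 946.7 CPM in the controls. Every gene of the run had all 3 doubles below both controls, as had all 2841 genes called lower. This separation and that of the summed levels thus came with the choice of called genes. The log2 fold changes ran from -5.82 to -1.08. The same 11 genes summed to 683 to 714 CPM in the sox3 libraries and 515 to 739 CPM in the msx1 libraries, against 194 to 247 CPM in the sox10 and 131 to 194 CPM in the tfap2b libraries. None of the 11 overlaps another annotated gene.

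Upstream in coordinates, with 11 tested genes between, lay one of the 5 runs of at least 5 higher genes. From 104524268 to 104675446 on the same chromosome, 5 successive genes were higher, with summed levels of 695.1, 603.0 and 843.8 CPM in the doubles and 281.6 and 244.4 CPM in the controls. Over the whole stretch from 104524268 to 104982803, 33 genes were tested, of which 7 were higher and 18 lower. From 104858039 on, 16 of 17 genes were lower, among them ENSGALG00000016524. The exception measured 141.2, 134.0 and 172.9 CPM in the doubles and 104.0 and 85.7 CPM in the controls, a log2 fold change of 0.66 ± 0.29 that was not called.

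**Figure D5:**
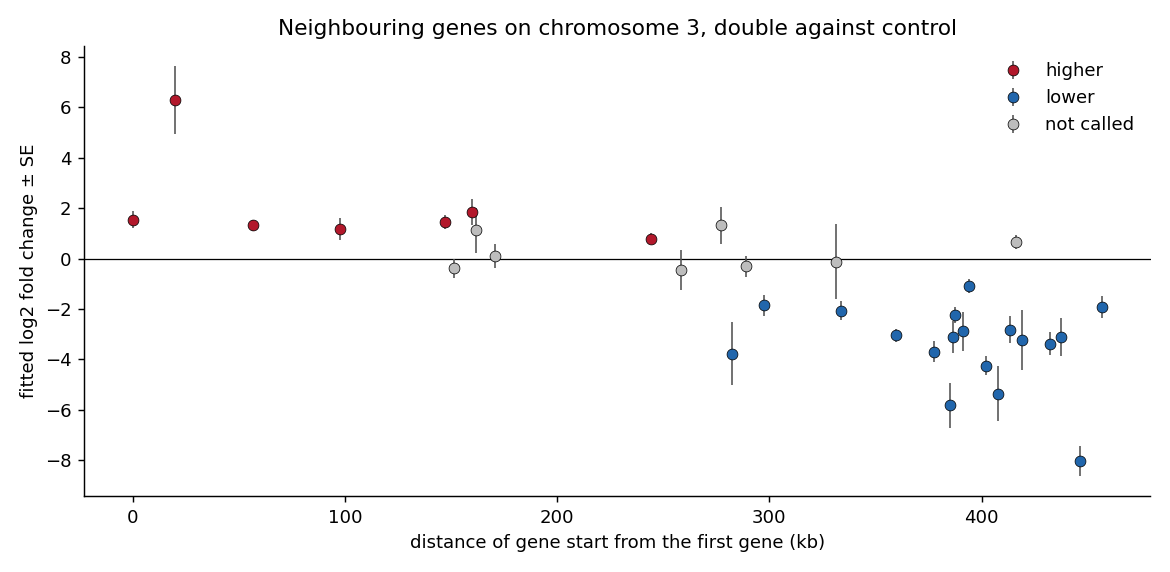
Fitted log2 fold change ± SE (vertical axis) of the 33 neighbouring tested genes on chromosome 3 by the distance of their start from the first gene in kb (horizontal axis), red for higher, blue for lower and grey for not called. The first 5 genes are higher, and 16 of the last 17 are lower.

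The next 3 runs of lower genes by gene number lay on microchromosomes, while others of at least 5 genes lay on larger chromosomes, such as 6-gene runs on chromosomes 8 and 10. On chromosome 12, 9 successive genes from 2318860 to 2429944 summed to 94.4, 114.4 and 71.8 CPM in the doubles and 456.8 and 438.6 CPM in the controls. On chromosome 13, 7 genes from 10144882 to 10196257 summed to 58.0, 72.8 and 52.5 CPM against 506.3 and 457.6 CPM. On chromosome 19, 7 genes from 6860109 to 7003223 summed to 67.2, 82.0 and 96.7 CPM against 415.7 and 388.9 CPM. In each run the doubles lay well below both controls, which was given by the choice of genes called lower.

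The longest run of higher genes was on chromosome 27, where 6 genes lay between 3782436 and 3840489. They summed to 337.4, 329.3 and 240.1 CPM in the doubles and 54.0 and 42.3 CPM in the controls. A single gene, ENSGALG00000034907, held 193.6, 212.6 and 168.2 CPM of this in the doubles. The sum of the 6 genes also lay above the control in the other groups, although ENSGALG00000001276 measured 0 CPM in the control, sox3 and msx1 groups. The 6 genes summed to 161.0 to 178.1 CPM in the sox3 and 115.4 to 187.3 CPM in the msx1 libraries. In the sox10 libraries they summed to 434.0 to 463.9 CPM, and in the tfap2b libraries to 160.7 to 215.3 CPM. All 6 overlap another annotated gene by span, so reads may be shared between genes there if exons overlap, which was not checked. On chromosome 5, 5 genes from 55338613 to 55436007 summed to 1198, 1096 and 1250 CPM in the doubles and 513.0 and 482.0 CPM in the controls, and none of them overlaps another gene.

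The double group was also set directly against the single-target groups. Against the sox10 group, 1844 genes (13.1%) were called, 866 higher (6.15%) and 978 lower (6.95%). The sox10 libraries of that contrast resembled each other less than the doubles did, with a Spearman rho of 0.854 to 0.888. The balance of directions in that contrast was not stable, with 780 higher and 1238 lower under RLE scaling, 143 and 514 with limma-voom, 413 and 318 without double replicate 1 and 459 and 328 without double replicate 2. Against the tfap2b group, 6 genes (0.0426%) were called by edgeR, 1 higher and 5 lower, with 1410 at an unadjusted p under 0.05, while DESeq2 called 192 and limma-voom 58. A missed call does not show equal levels: the 95% interval of the log2 difference from the tfap2b group reached 1.09 to either side in the median gene, 4110 genes (29.2%) had an interval wholly within 2-fold, and 2760 genes (19.6%) had a fitted difference beyond 2-fold.

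The last contrast set the double group against the sum of the single effects. The contrast of double minus sox10 minus tfap2b plus control on the log2 scale was called for 5198 genes (36.9%), 2810 positive and 2388 negative. It equals the difference of double from tfap2b less that of sox10 from control. The first had 6 calls and the second 6538, and tfap2b against control had 5430. Groups that differ alike from the same 2 controls give calls here, so the count does not measure interaction between the factors. For ENSGALG00000016524 the log2 fold changes against the control were -7.72 ± 0.59 with sox10 guides, -7.06 ± 0.55 with tfap2b guides and -8.04 ± 0.58 with both (SE), groups that share the 2 control libraries. The gene lay under 2 CPM in every library of these 3 groups, and its contrast was 6.73 ± 0.82 (SE). For a gene near 0 in both single-target groups, an additive level could not have been measured, so the sign of this contrast was fixed by the floor. How many of the called genes this holds for was not tested.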

How the data were processed

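RNA from 16 chick libraries was sequenced as 40 bp paired reads after SMART-Seq v4 amplification, per the labels. The authors deposited 1 table of raw counts per Ensembl gene with exon positions. The submitters' processing notes list Subread 1.4.5 with featureCounts, STAR 2.4.2a, DESeq2 and the build galGal5, and no source used here gives the strand setting. The deposited gene length column (another unit, bp) was not used for tests. The 24881 IDs matched 0 entries of the reference gene table, so no symbols or sequences are given.

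Counts were filtered with edgeR's filterByExpr at its defaults (14081 genes kept), scaled by TMM and tested with edgeR 4.0.16 (quasi-likelihood, robust; R 4.3.3) in 1 fit of all 16 libraries with group as the only term (10 residual degrees of freedom, common biological coefficient of variation 0.478) and Benjamini-Hochberg adjustment over all tested genes. CPM values use TMM library sizes. In simulated data for double against control (13715 genes), 4%, 34%, 70% and 60% of genes changed 2-, 4-, 8- and 16-fold were recovered, with 3 false calls. The simulation changed only 50 genes at each fold, against 5243 called in the data, and set a lower limit to the spread between libraries. Its threshold on the p-value was therefore stricter, and these shares do not give the power of the real comparison. The 37 mitochondrial features hold 0 counts. The binomial interval covers counting error only, since no molecular identifiers are given, while intervals of log2 differences come from the edgeR fit.

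Genes named are the first 2 per direction by fold with an adjusted p under 0.05, at least 50 CPM in a group and no overlap of libraries, and the 2 of at least 50 CPM in both groups nearest 0. Regions were chosen by run length. Members, groups and rules were chosen with earlier results of these data known. Alternatives were RLE scaling, other filters, DESeq2 1.42.0, limma-voom (limma 3.58.1), a replicate block, libraries left out, close library pairs summed, the double and control libraries alone, and the msx1 or sox3 libraries in place of the control.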

Additional observations from a re-analysis of the deposited data

Results flagged for a closer look

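For the 4 genes named as changed against the control, the interaction contrast in edgeR, the log2 effect of sox10 guides with tfap2b guides minus that without, had an adjusted p under 0.05. The genes were chosen by their fold against the same 2 control libraries, which enter this contrast again, so the values are given as a description. For both falling genes the single-target groups were near 0 CPM, an additive level could not have been measured, and the positive sign was fixed by that floor. The double group carried 1 sox10 guide and the sox10 group 2, so guide number differs between these effects.

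For ENSGALG00000016524 the contrast was 6.73 ± 0.82 (SE, adjusted p = 3.22e-05): sox10 guides changed it by -7.72 on their own and by -0.99 beside tfap2b guides. For ENSGALG00000034560 it was 6.00 ± 1.04 (adjusted p = 0.000359), with -8.11 and -2.11. For ENSGALG00000013575 it was -10.83 ± 3.45 (adjusted p = 0.0262), with 11.46 and 0.63. For ENSGALG00000017347 it was -15.23 ± 3.68 (adjusted p = 0.00806), with 13.41 and -1.81. The values of both rising genes rest on 2 and 15 counts in the control libraries. Their log2 changes with tfap2b guides alone were 9.48 and 11.29, beside 11.46 and 13.41 with sox10 guides alone. For ENSGALG00000017347 the sum of both changes would exceed a whole library, so the negative sign was fixed in advance. For ENSGALG00000013575 the additive level counts the near-0 control into both effects, so no conclusion is drawn from its sign. Groups of 2 or 3 libraries were not searched for single outlying samples.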

How the results depend on the processing

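Calls of the double group against the control numbered 5243 as reported, 8504 with limma-voom, 2007 with close pairs summed and 3048 to 4804 with 1 library left out; with the sox3 or msx1 group as reference they numbered 3944 and 4622, with 21 and 11 genes called in the opposite direction, and 0 were so under the other alternatives. The replicate block gave 4879 calls. Same-numbered libraries deviated from their group means with correlations of -0.023 and 0.010. The deviations of the 2 controls mirror each other, so these values cannot decide whether the numbers pair the libraries. Against the sox10 group the count was 1844, 3124 with DESeq2, 657 with limma-voom, 1310 with the replicate block and 731 to 2754 with 1 library left out (731, 787 and 1132 without double replicates 1, 2 and 3, 1137 without sox10 replicate 3). Against the tfap2b group it was 6, 13 without a filter, 192 with DESeq2, 58 with limma-voom, 3 with the replicate block and 0 to 8 with 1 library left out. Non-additive genes numbered 5198, and 3612 to 5035 with 1 double or control library left out; leaving out sox10 or tfap2b libraries was not run for this contrast. ENSGALG00000017347 reversed to -3.15 with the sox3 group as the reference. Both falling genes kept their call in 15 of 15 alternatives. The median of microchromosome genes ran from -0.51 to -0.40, but 23 of 90 recomputed group medians moved by more than the spread of the double libraries: without the expression filter those of macrochromosome genes, Z genes, the shortest genes and genes with 1 exon block were 0.00. The depth of the double libraries limits genes near 1 CPM.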

Other observations

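Gene span and overlap, which the comparison above did not cover, were described in the same way. Of 864 genes spanning between 100000 and 300000 bp, 83 rose in the double group (9.61%) and 221 fell (25.6%), with a median log2 fold change of -0.61. Of 4731 genes spanning between 2000 and 10000 bp, 1004 were higher (21.2%) and 951 lower (20.1%), with a median of 0.05. Of 2604 genes that overlap another annotated gene, 417 were higher and 593 lower (22.8%), against 1985 (17.3%) higher and 2248 (19.6%) lower of 11477 genes that do not. On chromosome 32, 7 of 12 tested genes were lower and 1 higher, a chromosome singled out after its values were seen.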
